A study of Mus musculus with 12 samples.

Results

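The genes described are the aryl hydrocarbon receptor and 7 genes tied to it: the receptor Ahr, its DNA-binding partner Arnt, its repressor Ahrr, the target genes Cyp1a1, Cyp1b1, Tiparp and Nqo1, and Ido1, whose enzyme begins the synthesis of one of the receptor's ligands. They were chosen by name, with no filter on their level, and are 8 of the 22377 genes listed over all libraries. Each had at least 1 listed transcript. The 12 libraries hold polyadenylated RNA from colon tissue of mice, 4 labelled control, 4 labelled DSS and 4 labelled FGF1. DSS, dextran sulfate sodium, is a polymer that damages the gut epithelium and brings on colitis in mice. Fibroblast growth factor 1 (FGF1) is a secreted growth factor, which the design text names as a supplement (rFGF1) for diseased mice. No genotype, strain, age, dose or duration is given for these libraries, and whether the FGF1 mice also received DSS is not stated. Separate animals are not named either, so the p-values speak of the spread among these samples alone, which may be technical.

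The aryl hydrocarbon receptor is a transcription factor that waits in the cytoplasm with chaperones such as HSP90. When it binds a ligand such as a tryptophan metabolite, a dietary indole or a pollutant, it enters the nucleus, pairs with ARNT and binds DNA at a short element with the core GCGTG. The cytochromes P450 it switches on break its ligands down, while AHRR and TIPARP, also made on its command, damp it again. In the gut this receptor is known for its part in barrier upkeep and in lymphoid cells of the mucosa, and IDO1, an enzyme induced by interferon gamma, opens the route from tryptophan to kynurenine.

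Between DSS and control, Ido1 was higher and Ahrr was lower in DSS, and the other 6 genes did not pass a test. Values are FPKM (fragments per kilobase of transcript and per total of the library), summed over a gene's listed transcripts. Genes with at least 1 FPKM in at least 4 libraries were tested with limma on log2(FPKM + 1), and 5 of the 8 genes were among the 12578 tested. The call at an adjusted p under 0.05 was made for 1 of these 5, Ido1, where 12.3% of all tested genes were called (2.23% higher, 10.1% lower). Without a filter, 1 of the 8 genes was higher (Ido1) and 1 was lower (Ahrr) with no overlap between the libraries of DSS and control, against 2.45% and 10.9% of all listed genes. Between FGF1 and DSS no gene of the 8 was called (0.0557% of tested genes, or 7, were called) and none separated the groups (4.59% of listed genes did). Between FGF1 and control none was called (0.0795%, or 10 genes), and 2, Ahrr and Arnt, were lower in all FGF1 libraries, where 5.78% of listed genes were lower and 2.43% higher without overlap. At an unadjusted p under 0.05, limma gave 1561 genes for FGF1 against DSS, none of the 8 among them, and 1753 for FGF1 against control, with 1 of the 8, Ido1. The 3 comparisons share libraries, so their results are not independent.

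The libraries listed 45795 to 54313 transcripts and had 11190 to 12721 genes at 1 FPKM or more. Read counts could not be recovered from the FPKM values, so the depth is unknown, and so is the counting error of the lowest values. Markers of colon epithelium were present throughout, with a summed FPKM of 4930 to 5320 in control, 4620 to 6570 in DSS and 5300 to 6790 in FGF1, and 0 of 9 were called. Markers of several cell types beneath the epithelium were lower in DSS. All 7 fibroblast markers were called lower, and their sum was 213 to 327 in control, 11.9 to 76.7 in DSS and 64.7 to 193 in FGF1. In these bulk samples fewer cells of a type and less RNA per cell cannot be told apart. The size of the change depends on how libraries are scaled: with median-of-ratios scaling the median log2 change of all genes in DSS moved from -0.0705 to 0.0536, and the share of higher genes among the calls from 18.1% to 40.7%.

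Upstream sequence was at hand for 6 of the 8 genes, from RefSeq (GRCm38.p6), as the 250 bases before a gene's start; Ahr and Ido1 had no entry. The windows of Ahrr, Cyp1a1 and Cyp1b1 are shown because these are the receptor's direct targets that stayed under 1 FPKM in every library. Each is read 5′ to 3′ on the gene's strand, and capitals mark GCGTG, or CACGC where it stands on the other strand. Ahrr, chr13:74292332-74292581, minus strand, held 3 matches, 27, 82 and 107 bases before the start. Cyp1a1, chr9:57697363-57697612, plus strand, held 1 match, and this window lies before the start of the transcript Cyp1a1-201, which the files do not list. Cyp1b1, chr17:79715062-79715311, minus strand, held 1 match, on the other strand.
Ahrr: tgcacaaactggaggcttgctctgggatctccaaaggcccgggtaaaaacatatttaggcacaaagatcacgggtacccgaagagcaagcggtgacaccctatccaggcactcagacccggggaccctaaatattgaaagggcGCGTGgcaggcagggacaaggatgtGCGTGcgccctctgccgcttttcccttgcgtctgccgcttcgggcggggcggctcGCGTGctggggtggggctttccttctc
Cyp1a1: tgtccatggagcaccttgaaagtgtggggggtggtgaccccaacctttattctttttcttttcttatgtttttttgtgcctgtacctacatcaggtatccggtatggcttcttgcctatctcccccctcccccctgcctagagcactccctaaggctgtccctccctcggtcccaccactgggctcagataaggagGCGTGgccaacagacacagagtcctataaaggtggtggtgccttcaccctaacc
Cyp1b1: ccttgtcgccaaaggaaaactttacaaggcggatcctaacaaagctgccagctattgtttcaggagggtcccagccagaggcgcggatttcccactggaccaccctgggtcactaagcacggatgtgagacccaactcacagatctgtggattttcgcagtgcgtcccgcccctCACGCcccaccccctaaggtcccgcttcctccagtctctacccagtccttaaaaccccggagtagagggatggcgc
Of 32851 such windows, 28.2% held at least 1 match on either strand, 8.63% at least 2 and 2.77% at least 3. Of the other windows at hand, those of Arnt and Tiparp held 1 match each and that of Nqo1 held 0. A match describes these letters only and is not a bound site.

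Among the 8 genes the order of levels, as the mean of the group means, was Nqo1 (31.6 FPKM), Arnt (5.73), Tiparp (5.08), Ido1 (2.7), Ahr (2.58), Ahrr (0.26), Cyp1b1 (0.0792) and Cyp1a1 (0.0537). FPKM is per length, so levels can be set side by side. Nqo1 lay above every other gene in each library, with no overlap over the 12 libraries. Arnt, Tiparp and Ido1 overlapped in their ranges, as did Ido1 and Ahr. Ahrr and the 2 cytochromes were all under 0.6 FPKM and overlapped each other. The lowest Ido1 value, 0.0973 in control 3, lay within the range of each of them.

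**Figure D1:**
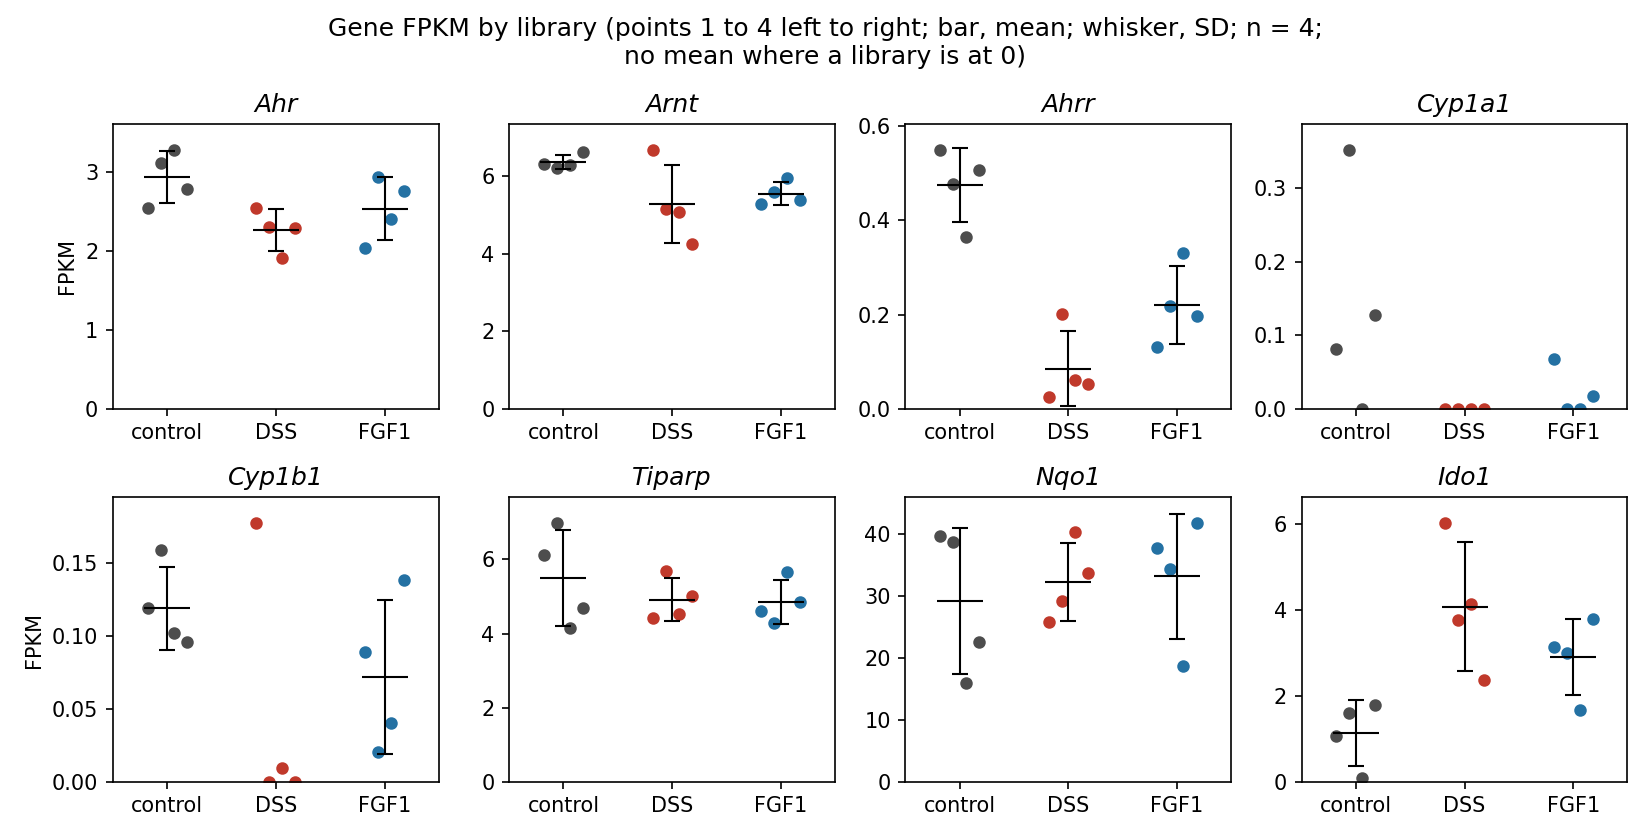
FPKM of the 8 genes on the y axis (linear, from 0, its own scale per gene) by group on the x axis; points are libraries 1 to 4 from left to right, bars are means and whiskers SDs over 4 libraries, left out where a library is at 0. Ido1 is higher in all 4 DSS libraries than in any control library, and Ahrr is lower in all 4.

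No comparison of Ahr passed the test, and its libraries overlapped in all 3 comparisons. The gene encodes the ligand-binding receptor itself (ENSMUSG00000019256, chr12:35497974-35535038, minus strand, GRCm38). Its FPKM was 2.547, 3.12, 3.28 and 2.79 in control libraries 1 to 4. In DSS it was 2.550, 2.31, 1.91 and 2.30, and in FGF1 it was 2.04, 2.95, 2.40 and 2.76. The DSS libraries were the lower ones, except that DSS 1 sat just above control 1. The control mean was 2.93 ± 0.33, the DSS mean 2.27 ± 0.263 and the FGF1 mean 2.54 ± 0.4 (SD, n = 4). By limma the log2 change in DSS against control was -0.27 (SE 0.124, adjusted p = 0.185), that in FGF1 against DSS was 0.11 (adjusted p = 0.758) and that in FGF1 against control was -0.16 (adjusted p = 0.624). Of its 3 annotated transcripts 2 were listed. The coding transcript Ahr-202, of 5548 bases, held 88.8% to 100% of the gene's FPKM, and a transcript with a retained intron, Ahr-203, held the rest.

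Arnt, the partner shared by the receptor and by the hypoxia factors, was lower in FGF1 libraries than in control libraries without overlap, yet no comparison was called (ENSMUSG00000015522, chr3:95434388-95497240, plus strand). Its FPKM was 6.31, 6.21, 6.29 and 6.63 in control, 6.67, 5.14, 5.08 and 4.24 in DSS, and 5.28, 5.58, 5.93 and 5.37 in FGF1. The control libraries lay close together, and DSS 1 lay above them while the other 3 DSS libraries lay below. The control mean was 6.36 ± 0.183, the DSS mean 5.28 ± 1.01 and the FGF1 mean 5.54 ± 0.291 (SD, n = 4). By limma the log2 change was -0.24 in DSS against control (SE 0.117, adjusted p = 0.207), 0.07 in FGF1 against DSS (adjusted p = 0.846) and -0.17 in FGF1 against control (adjusted p = 0.557). Without DSS 1, the change in DSS against control was -0.342 with an adjusted p of 0.0358 by limma, so that library decides the call. Without DSS 4, and without DSS 3 and 4 together, the value for FGF1 against DSS turned to -0.012 and -0.0703.

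Several Arnt transcripts shared the gene's FPKM: 9 of 11 annotated were listed. Transcripts annotated as retaining an intron held 39.8% to 77.3% of it, and the control mean of 61.6% ± 15.7 was close to the DSS mean of 60.6% ± 12.2 and the FGF1 mean of 56.6% ± 12.3 (SD, n = 4). The files also give an exon of 45 bases, a length that keeps the reading frame, at chr3:95466793-95466837, plus strand. It is present in 3 listed transcripts, Arnt-203 and 2 with retained introns, and skipped in Arnt-202, and its bases are shown because the coding forms Arnt-202 and Arnt-203 differ there.
Arnt exon: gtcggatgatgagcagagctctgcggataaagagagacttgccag
Of the FPKM of these 4 transcripts, those with the exon held 49.7%, 34.3%, 86.0% and 88.0% in control, 60.4%, 52.5%, 58.4% and 38.3% in DSS, and 40.8%, 44.2%, 89.4% and 57.5% in FGF1. Control libraries covered the whole range of DSS libraries, so no group stood apart. The shares are as the authors' assembly divided the reads, and they carry no test.

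Ahrr was the gene of the 8 with the lowest DSS values relative to control, among the genes above 0 in every library. It encodes the repressor that competes with the receptor for ARNT (ENSMUSG00000021575, chr13:74211118-74292331, minus strand), and its window above held the most matches. Its FPKM was 0.550, 0.478, 0.365 and 0.507 in control, 0.0252, 0.201, 0.0618 and 0.0530 in DSS, and 0.132, 0.219, 0.331 and 0.197 in FGF1. Every control library lay above every DSS and every FGF1 library, and DSS 2 alone among the DSS libraries reached into the FGF1 range. The control mean was 0.475 ± 0.0791, that of DSS 0.0853 ± 0.0788 and that of FGF1 0.22 ± 0.0827 (SD, n = 4), so the DSS mean was 5.57-fold lower and the FGF1 mean 2.16-fold lower than that of control. No library reached 1 FPKM, so the gene was below the filter and was tested alone, on log2(FPKM + 1), by a two-sided exact permutation test.

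The Ahrr difference was -0.44 in DSS against control (exact permutation p = 0.0286, the smallest that 4 against 4 libraries allow) and -0.27 in FGF1 against control (exact p = 0.0286). In FGF1 against DSS it was 0.17 (exact p = 0.0857). These are 3 of 9 such tests over the genes below the filter, and the p-values are not adjusted. With no filter, limma over all listed genes gave an adjusted p of 0.0062 for DSS against control, 0.117 for FGF1 against control and 0.427 for FGF1 against DSS. Without control 1, 2 or 4, or without FGF1 1, the exact p for FGF1 against control was 0.0571. Nearly all of the value came from 1 coding transcript, Ahrr-201; the other coding transcript, Ahrr-202, was not listed. FPKM times transcript length in kilobases was 1.74 to 2.62 in control and 0.12 to 0.957 in DSS, which is little RNA.

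Markers of several cell types were lower in DSS, as Ahrr was. Besides the fibroblast sum given above, 6 of 7 endothelial markers were called lower in DSS, with a sum of 50.8 to 63.1 FPKM in control, 6.81 to 30.4 in DSS and 20.5 to 35.7 in FGF1. Of 9 macrophage and dendritic cell markers 7 were tested and 4 were called lower, with a sum of 44.4 to 81.7 in control, 9.58 to 22.8 in DSS and 18.6 to 60.1 in FGF1. Xcr1, a dendritic cell marker, was at 0 in 3 libraries (DSS 1, DSS 2 and FGF1 1) and Adgre1, a macrophage marker, in DSS 3. Of 6 B and plasma cell markers 4 were tested and 3 were called lower, with sums of 812 to 2360, 40.5 to 109 and 125 to 498 in the same order. Cd79a, of the same list, was not called (0.21, adjusted p = 0.775 by limma). Of 7 smooth muscle markers 2 were called lower, with a median log2 change of -1.81. Of 6 tuft cell markers 5 were tested and 2 were called lower, with a median of -0.614. Of 8 markers of T cells and innate lymphoid cells 3 were tested and 0 were called, with a median of 0.239. The part of these cell types in the Ahrr result was not tested.

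Cyp1a1, the best known target of the receptor and the main enzyme that clears its ligands, was close to 0 everywhere. It was listed through 1 of its 2 annotated transcripts (ENSMUSG00000032315, chr9:57687928-57703824, plus strand). Its FPKM was 0.0813, 0.352, 0 and 0.127 in control, and it was listed at 0 in all 4 DSS libraries. In FGF1 it was 0.0675, 0, 0 and 0.0172. Control 2 held the highest value, and because control 3 was at 0 the groups overlapped. A value of 0 can mean no RNA or a transcript that was not assembled, so no fold change is given. The exact permutation p was 0.143 for DSS against control, 0.429 for FGF1 against DSS and 0.171 for FGF1 against control. Without control 3 the exact p was 0.0286 in both comparisons with control, with differences of -0.24 for DSS and -0.21 for FGF1 on the log2(FPKM + 1) scale, so control 3 decides on which side of 0.05 they fall. The listed transcript, Cyp1a1-202, starts upstream of Cyp1a1-201.

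Cyp1b1, a second cytochrome of the same family with a wider range of tissues, was also low (ENSMUSG00000024087, chr17:79701537-79715061, minus strand; 2 of 3 transcripts listed). Its FPKM was 0.119, 0.159, 0.102 and 0.0957 in control, 0.177, 0, 0.00945 and 0 in DSS, and 0.0888, 0.0207, 0.0403 and 0.138 in FGF1. The highest value of all 12 was that of DSS 1, while the other 3 DSS libraries were the lowest of all. The exact permutation p was 0.143 for DSS against control, 0.6 for FGF1 against DSS and 0.2 for FGF1 against control. Without DSS 1 the first comparison had an exact p of 0.0286 and a difference of -0.157, and without FGF1 4 the last had an exact p of 0.0286 and a difference of -0.0918. Without DSS 3 and 4 the value for FGF1 against DSS turned from 0.04 to -0.0185. The only positive value of FGF1 3 came from a transcript annotated for nonsense-mediated decay, Cyp1b1-203.

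Tiparp, which adds ADP-ribose to the receptor and so limits it, passed the test in no comparison (ENSMUSG00000034640, chr3:65528410-65555518, plus strand; 3 of 3 transcripts listed). Its FPKM was 6.12, 6.98, 4.15 and 4.696 in control, 4.42, 5.68, 4.52 and 5.03 in DSS, and 4.62, 4.28, 5.68 and 4.85 in FGF1. Control libraries held both the highest and the lowest values, so all groups overlapped. The means were 5.49 ± 1.3, 4.91 ± 0.578 and 4.85 ± 0.595 (SD, n = 4). By limma the log2 changes were -0.12 in DSS against control (SE 0.149, adjusted p = 0.668), -0.01 in FGF1 against DSS (adjusted p = 0.981) and -0.13 in FGF1 against control (adjusted p = 0.752). With median-of-ratios scaling the first of these was 0.0037, so no direction is given.

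Nqo1, a quinone reductase controlled by the receptor and by the stress factor NRF2, was the most abundant of the 8 (ENSMUSG00000003849, chr8:107388225-107403206, minus strand; its only annotated transcript was listed). Its FPKM was 39.7, 38.7, 16.0 and 22.6 in control, 25.8, 29.2, 40.4 and 33.7 in DSS, and 37.8, 34.3, 18.8 and 41.8 in FGF1. The 3 lowest libraries were control 3, FGF1 3 and control 4, and the groups overlapped. The means were 29.3 ± 11.8, 32.3 ± 6.31 and 33.2 ± 10.1 (SD, n = 4). By limma the log2 changes were 0.21 in DSS against control (SE 0.302, adjusted p = 0.707), 0.00 in FGF1 against DSS (adjusted p = 1.0) and 0.21 in FGF1 against control (adjusted p = 0.813). Without control 3 they were -0.0364 in DSS and -0.0372 in FGF1, so that library sets their sign. The same 3 libraries had the highest summed smooth muscle markers, 6817 in control 3, 6349 in FGF1 3 and 5321 in control 4, against 465.7 to 3048 in the other 9. The share of muscle in these libraries was not tested as a source of the low Nqo1 values.

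Ido1 rose in DSS, the only one of the 8 genes that did so by the test. It encodes the enzyme that starts the breakdown of tryptophan to kynurenine, itself a ligand of the receptor (ENSMUSG00000031551, chr8:24584136-24597009, minus strand; 2 of 2 transcripts listed). Its FPKM was 1.06, 1.61, 0.0973 and 1.78 in control, 6.02, 3.76, 4.15 and 2.37 in DSS, and 3.15, 2.99, 1.68 and 3.79 in FGF1. All 4 DSS libraries lay above all 4 control libraries, and 3 of the 4 FGF1 libraries did so as well, with FGF1 3 just under control 4. The control mean was 1.14 ± 0.758, the DSS mean 4.07 ± 1.5 and the FGF1 mean 2.9 ± 0.887 (SD, n = 4), a ratio of 3.58 for DSS to control. By limma the log2 change was 1.29 in DSS against control (SE 0.308, adjusted p = 0.0209).

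In FGF1 against control the log2 change of Ido1 was 0.92 (adjusted p = 0.214 by limma), and in FGF1 against DSS it was -0.36 (adjusted p = 0.673). Neither passed the threshold. The call for DSS against control was kept in 24 of 27 alternatives, with values from 0.837 to 2.1. It was lost without DSS 3 (1.26, adjusted p = 0.059), without DSS 3 and 4 (1.52, adjusted p = 0.0815) and with only the gene's most abundant transcript (0.837, adjusted p = 0.456). Control 3, the lowest library, widened the change: without it the value was 0.994 (adjusted p = 0.0445 by limma). The summed markers of T cells and innate lymphoid cells were 32.9 to 40.2 in control, 29 to 47.6 in DSS and 33.5 to 40.5 in FGF1, and 0 of the 3 tested of 8 were called. Gata3, one of them, was at 0 in DSS 3.

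**Figure D2:**
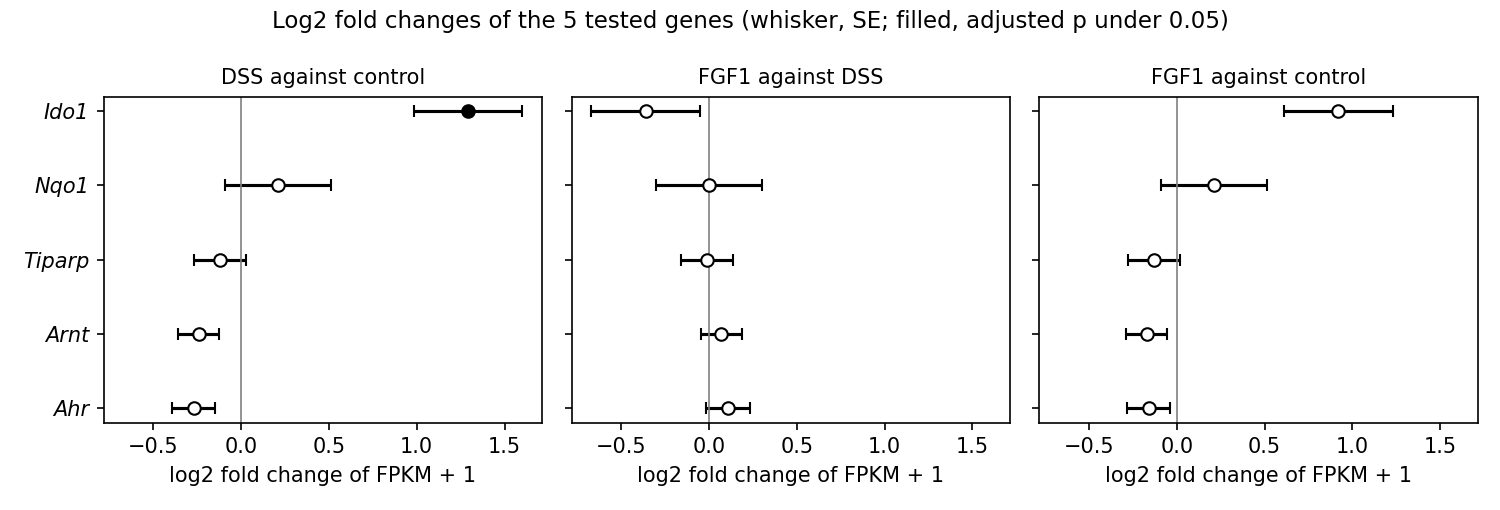
Log2 fold change of FPKM + 1 (x axis) of the 5 genes tested with limma (y axis) in the 3 comparisons, one panel each; whiskers are 1 SE, and a filled point has an adjusted p under 0.05. Ido1 in DSS against control, at 1.29, is the only filled point, and the other 4 genes lie between -0.27 and 0.21 in that comparison.

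The 2 listed Ido1 transcripts begin at different places and share 9 exons of the same start and end. Ido1-201 begins at position 24597009 on chromosome 8 and has 1221 coding bases. Ido1-202 begins 1343 bases further in, at 24595666, and has 948 coding bases, so its annotated protein is shorter. The coding bases in the first exon of Ido1-201 (chr8:24596841-24596939, minus strand, GENCODE vM21) are shown because only this transcript holds them, with the start codon in capitals.
Ido1-201: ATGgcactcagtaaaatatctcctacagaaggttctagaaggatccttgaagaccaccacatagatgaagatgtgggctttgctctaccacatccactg

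Ido1-202 carried the gene in 10 of the 12 libraries and Ido1-201 in the remaining 2. The FPKM of Ido1-202 was 1.00, 1.49, 0.0973 and 1.53 in control, 5.43, 3.21, 3.89 and 0.066 in DSS, and 2.95, 0.0254, 1.45 and 3.35 in FGF1. That of Ido1-201 was 0.0581, 0.118, 0 and 0.252 in control, 0.586, 0.555, 0.258 and 2.30 in DSS, and 0.202, 2.97, 0.229 and 0.445 in FGF1. Its share was 97.2% in DSS 4 and 99.1% in FGF1 2, against 0% to 14.7% in the other 10 libraries. The exchange was nearly complete in those 2, while the gene's sum stayed within the range of its group in FGF1 2 and was the lowest of its group in DSS 4. Ido1-202 alone gave the value of 0.837 named above. How the assembly divided the reads in these 2 libraries was not tested.

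**Figure D3:**
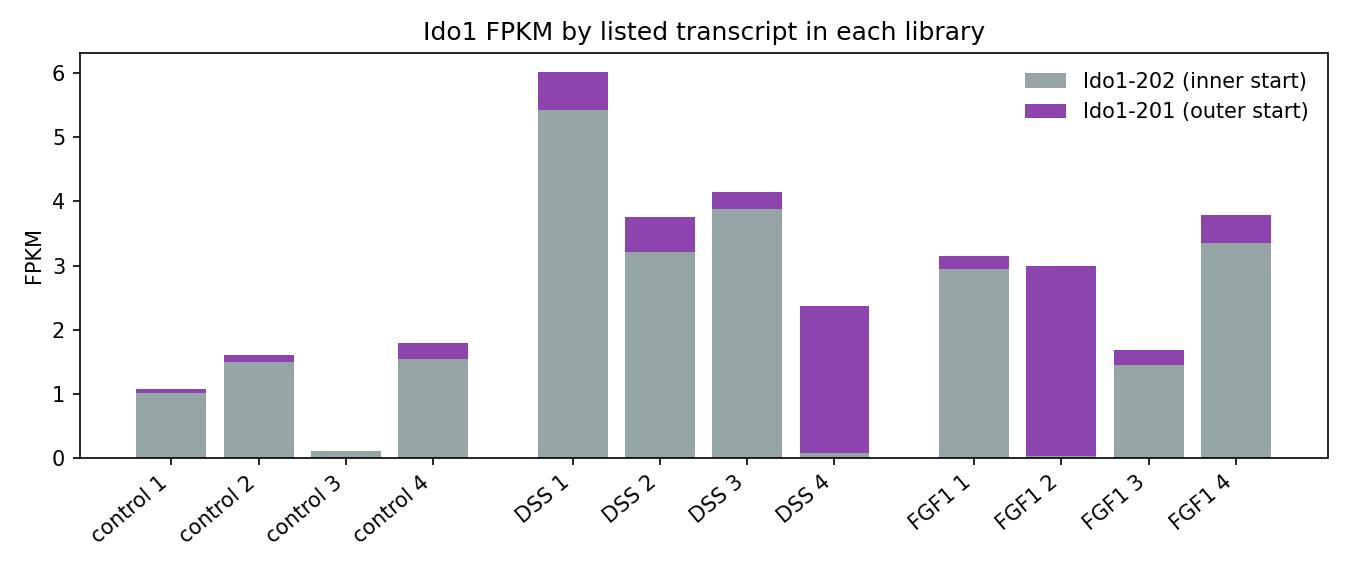
FPKM of Ido1 in each library (y axis, from 0), stacked by transcript. Ido1-201, which begins further out, makes up 97.2% of the bar in DSS 4 and 99.1% in FGF1 2 and at most 14.7% elsewhere.

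Among the 14 genes of the receptor complex and its partners, all tested, 4 fell in DSS and none rose (3 are described here), where 10.1% of all tested genes were called lower and 2.23% higher, with a median log2 change of -0.198 against -0.0705 for all genes. Hsp90aa1, the inducible HSP90 chaperone, fell from 79.6 ± 10.1 to 37 ± 11.6 FPKM (-1.12, adjusted p = 0.00947 by limma), and was 43.1 ± 12.5 in FGF1. Ncoa3, a coactivator of nuclear receptors, fell from 6.16 ± 0.65 to 3.01 ± 0.918 (-0.86, adjusted p = 0.0107), and all 4 DSS values were under the lowest control value. Epas1, the hypoxia factor HIF-2 alpha that also pairs with ARNT, fell from 17.9 ± 1.62 to 12.7 ± 2 (-0.48, adjusted p = 0.0268 by limma). It is prominent in endothelium, whose markers had a median log2 change of -1.48 in DSS. The part of endothelium in the Epas1 result was not tested. Hif1a, the related factor, was 9.94 ± 5.25 in control, 5.87 ± 2.48 in DSS and 11.2 ± 4.78 in FGF1, and the change in DSS of -0.63 was not called (adjusted p = 0.285). The call for Epas1 was lost without control 1, 2 or 4 or DSS 3. From start events alone, Hsp90aa1 had a value of 0.866 (adjusted p = 0.778), and with median-of-ratios scaling 2 genes of the list fell.

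Of 19 other genes known as targets of the receptor, 17 were in the files and 12 were tested, and limma called none (5 had an unadjusted p under 0.05), with a median of 0.0303. Nfe2l2, which encodes NRF2, had a control mean of 105 ± 28.9 FPKM, a DSS mean of 101 ± 24.6 and an FGF1 mean of 111 ± 14.9 (SD, n = 4), and its change in DSS was -0.05 (adjusted p = 0.909 by limma), turning to 0.0901 with median-of-ratios scaling. Il22, a cytokine of innate lymphoid cells that depends on the receptor, was not analysed here. With median-of-ratios and with upper-quartile scaling 1 gene of this list was called higher.

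Of 19 NRF2 targets 18 were tested, with a median of 0.272 in DSS against -0.0705 for all genes; 2 rose and 2 fell, where 2.23% of all tested genes were called higher and 10.1% lower. Srxn1, which repairs oxidised peroxiredoxins, rose from 45.7 ± 12.7 to 67.9 ± 11.7 FPKM (0.58, adjusted p = 0.0464 by limma), and Gsr, glutathione reductase, rose from 39.8 ± 2.8 to 54.2 ± 8.04 (0.43, adjusted p = 0.0337). Ephx1, an epoxide hydrolase, fell from 16.1 ± 2.27 to 6.95 ± 1.4 (-1.11, adjusted p = 0.0109), and Me1, malic enzyme, fell from 23.3 ± 3.39 to 13.3 ± 1.46 (-0.76, adjusted p = 0.0287). With median-of-ratios scaling 4 rose and 1 fell. The Srxn1 call was lost without any 1 of 10 libraries (all but control 1 and DSS 1), and that for Gsr without any 1 of 8 (all but DSS 2 and FGF1 1, 3 and 4). The call for Me1 was lost without control 1, 2 or 3 or DSS 2, 3 or 4, and Ephx1 had a value of 0.222 from start events alone (adjusted p = 0.931).

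In the tryptophan and kynurenine pathway, to which Ido1 belongs, 13 of 23 genes were tested, 1 rose and none fell, where 2.23% of all tested genes were called higher, with a median of -0.0331 that turned to 0.0831 with median-of-ratios scaling. Afmid, the formamidase that acts after IDO1 to release kynurenine, rose from 3.61 ± 0.407 to 5.7 ± 1.24 FPKM (0.53, SE 0.144, adjusted p = 0.0353 by limma) and was 3.91 ± 0.586 in FGF1. All 4 DSS libraries, from 4.89 to 7.53, lay above the control libraries, from 3.18 to 4.14. That call was lost in 12 of 27 alternatives, among them those without control 1, 3 or 4 or DSS 3 or 4 and that with the most abundant transcript alone (0.272, adjusted p = 0.72). The enzymes further down were too low to be tested: Kmo was at 0.0563 to 0.145 in control, 0 to 0.0977 in DSS and 0.043 to 0.323 in FGF1, and Kynu at 0 to 0.188, 0 to 0.0655 and 0 to 0.233. Il4i1, an amino acid oxidase that also makes ligands of the receptor from tryptophan, was at 0.0764 to 0.25 in control, 0.0979 to 0.596 in DSS and 0.0786 to 0.232 in FGF1. Wars, the tryptophan tRNA synthetase, which interferon gamma also induces, was 23.2 ± 2.1 in control, 16.7 ± 5.99 in DSS and 23 ± 1.9 in FGF1 (-0.51, adjusted p = 0.106), and without DSS 1 its change in DSS was called (-0.704, adjusted p = 0.0137).

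Interferon gamma induces Ido1 in many cells, and of 20 other genes of its response 17 were tested in DSS against control: 3 fell and none rose, where 10.1% of all tested genes were called lower and 2.23% higher, with a median of -0.24 against -0.0705 for all genes. Gbp2, a guanylate-binding protein of cell-autonomous defence, fell from 4.73 ± 1.15 to 1.78 ± 0.43 FPKM (-1.03, adjusted p = 0.00643 by limma) and was 4.35 ± 1.05 in FGF1. Its relatives Gbp3 (2 ± 0.265 to 0.659 ± 0.531, adjusted p = 0.0199) and Gbp4 (1.32 ± 0.101 to 0.451 ± 0.133, adjusted p = 0.0121) fell as well. Gbp4 reached 1 FPKM in control libraries only and so could only be called as lower. The uncalled genes of the list lay on both sides of 0, from -0.658 (adjusted p = 0.0878 by limma) to 0.6 (adjusted p = 0.0658). Ifng itself was listed at 0 in all control libraries and at no more than 0.0422 in DSS and 0.0668 in FGF1. The call for Gbp3 was lost in 8 of 26 alternatives, among them those without control 3 or 4 or DSS 3 or 4 and that with the most abundant transcript alone (-0.536 in place of -0.899, adjusted p = 0.378). With median-of-ratios scaling 2 genes of the list rose and 3 fell.

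**Figure D4:**
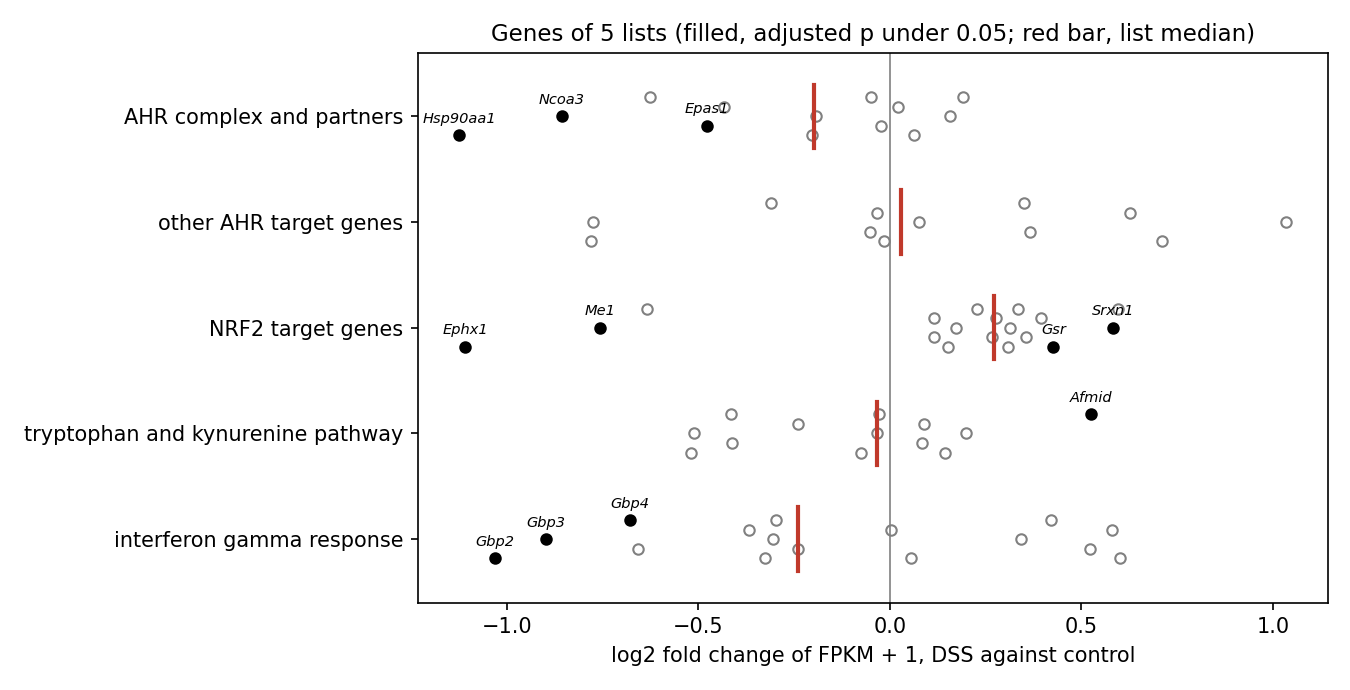
Log2 fold change of FPKM + 1 in DSS against control (x axis) of the tested genes of the 5 gene lists, less 2 that are not reported here (y axis; points are shifted up or down for legibility only), with called genes filled and named and the median of each whole list as a red bar. The calls are lower ones among the receptor's partners and the interferon gamma genes, 1 higher one (Afmid) in the tryptophan pathway, and 2 in each direction among the NRF2 targets.

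None of the 12 list genes called in DSS against control was called in another comparison. No gene of the 5 lists was called by limma in FGF1 against DSS (2 to 5 genes of each list had an unadjusted p under 0.05), with list medians from -0.142 (NRF2 targets) to 0.136 (interferon gamma response) beside 0.0456 for all genes. In FGF1 against control none was called either (0 to 3 genes of each list unadjusted), with medians from -0.0785 (receptor partners) to 0.0822 (other receptor targets) beside -0.0394. Without DSS 3 and 4 together all 12 calls were lost, with adjusted p from 0.0892 to 0.207. Only Hsp90aa1, Ncoa3, Ephx1 and Gbp2 were tested and kept their call whichever 1 of the 12 libraries was left out. Gbp4 kept its call in the 8 of these settings in which it was tested. Without any 1 control library it was under the filter and had no test.

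The genes whose levels ran most like each tested gene over the 12 libraries were found by Pearson's r on log2(FPKM + 1) among 12577 others, as a description with no test; these points share the libraries' composition. For Ido1 they were Dqx1, a helicase-like gene (r = 0.951), the predicted gene Gm21885 (0.906) and Mlkl, the effector of necroptosis (0.901), and for deviations from the group means r was 0.891, 0.736 and 0.921. For Nqo1 they were Aqp11, a water channel of intracellular membranes (0.973), Hsd3b3, a steroid dehydrogenase (0.945), and Pigp, an enzyme of membrane anchor synthesis (0.934), with 0.982, 0.949 and 0.938 within groups. For Arnt they were Zbtb21, a zinc finger protein (0.967), Exoc4, of the exocyst complex (0.958), and Tgfbr3, a co-receptor for TGF-beta (0.952). For Ahr they were Gigyf2, a translational repressor (0.924), Kif3a, a kinesin motor (0.911), and Slc7a6, an amino acid transporter (0.904). For Tiparp they were Atp2b1, a calcium pump (0.888), Slc2a6, of the glucose transporter family (0.867), and Susd6 (0.863). None of these genes is another of the 8, and for deviations from the group means the lowest of the 15 values of r was 0.736. These genes were picked by r over the same libraries, so the values within groups are not a separate check.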

How the data were processed

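The 3 groups of 4 colon libraries were compared with each other. Each library used oligo(dT) beads and 5 µg of RNA, per the labels' protocols. StringTie 1.3.4d, HISAT2 2.0.4, cutadapt 1.9 and edgeR are named, per the submitters' processing notes, with build GRCm38; what each did, and the edgeR version, is not given in the sources used here. The authors deposited a table of transcript structure events with the FPKM of the transcript in each library, per the file headers. Of 187383 event rows, 74659 transcripts of 22377 genes were listed. A transcript's highest value over its rows was taken, because a row holds 0 where its event is not listed in a library, and all positive values of a transcript in a library were equal. Values were summed per gene, with no further scaling. A transcript absent from a library counts as 0, and transcripts in no event have no value. The log2(FPKM + 1) scale understates changes of low genes.

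The two-sided test was limma 3.58.1 in R 4.3.3, with empirical Bayes and a trend of variance on mean, in 1 model over 12 libraries. It covered the 12578 genes that reached 1 FPKM in 4 or more libraries, with Benjamini-Hochberg adjustment over them. Genes of the 8 below the filter were compared by a two-sided exact permutation test of 4 against 4. The limma procedure was also run on simulated data, without the filter and with changes placed only in genes of higher level. Its outcome is not reported here, and it does not bear on genes as low as Ido1 or lower. The 8 genes, the gene lists, the tests and the alternatives were chosen with earlier results of these data known. Named are the 8 genes, up to 4 called genes per list and comparison, 9 list genes whatever their values, and the 3 genes most like each tested gene; some of these are not reported here. Symbols and transcripts came from GENCODE vM21. Samples with the same replicate number did not deviate together, so no pairing was used.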

Additional observations from a re-analysis of the deposited data

Results flagged for a closer look

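In each group of 4, the library farthest from the others was compared with the group's range by Dixon's ratio. Of 116 groups of values, 9 held a library whose ratio passed the 95% critical value, and chance gives about 1 in 20.

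Cyp1b1 was at 0.177 FPKM in DSS 1 and at 0 to 0.00945 in the other DSS libraries (ratio 0.947). Ido1-201 was at 2.3 FPKM in DSS 4, against 0.258 to 0.586 in the other DSS libraries (0.84), and at 2.97 in FGF1 2, against 0.202 to 0.445 in the other FGF1 libraries (0.912). As a share of the Ido1 FPKM it was 97.2% in DSS 4, against 6.22% to 14.7% (0.907), and 99.1% in FGF1 2, against 6.42% to 13.7% (0.921). Ncoa3 was at 4.39 FPKM in DSS 1 and at 2.53 to 2.57 in the other DSS libraries (0.978).

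Ugt1a6a, a glucuronosyltransferase and target of the receptor, was at 90.6 FPKM in DSS 4 and at 0.0197 to 0.637 in the other DSS libraries (0.993); it was chosen after its values were seen, and transcripts of its gene cluster share their last exons, so the division of reads between them is uncertain. The summed B and plasma cell markers were 2360 in control 1 and 812 to 965 in the other controls (0.902). The summed tuft cell markers were 17.3 in control 2 and 32.3 to 35.3 in the other controls (0.832).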

How the results depend on the processing

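Each comparison was recomputed under 27 alternatives. Over the 8 genes they gave 603 results, of which 572 kept their direction and side of the threshold, 10 lost it, 6 gained it and 15 changed sign. The losses were 3 of 27 for Ido1 in DSS against control, and for Ahrr 1 of 22 there and 6 of 22 in FGF1 against control. For Ahrr, Cyp1a1 and Cyp1b1 the side of the threshold was that of the unadjusted exact p. With no filter it was that of the adjusted p of limma, so there 2 unlike tests were compared. The Ahrr losses in FGF1 against control include that setting (adjusted p = 0.117 by limma). No other result of the 8 genes passed the threshold in the main run, so most of those kept were results that stayed above it. For 16 genes of the lists in DSS against control, 334 of 423 were kept, 82 were lost, 1 was gained and 6 changed sign. With the replicate block, Ido1 in DSS against control stayed at 1.29 (adjusted p = 0.0316 by limma). Of 12 pairs of samples with the same number, 3 correlated above 0.1 (r from -0.217 to 0.399), and in 4 of 24 matches the best partner had the same number, so the numbers do not pair the samples. The exact tests were not rerun under the settings that change only the variance model, the block or the groups in the fit.

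The number of genes called in DSS against control (1549) was 727 with start-event values, 844 with the most abundant transcript, 1028 with the replicate block (985 of them shared), 185 without DSS 3 and 4, 915 without control 3 and FGF1 3, and 697 to 1982 without 1 library. In FGF1 against DSS (7) it was 3 with the filter at 0.5 FPKM, 18 with the filter in 8 libraries, 15 with median-of-ratios and with upper-quartile scaling, 1 with start-event values, 3 with only the groups compared, 2 with the replicate block, 0 without DSS 3 and 4 (limma gave 1149 genes at an unadjusted p under 0.05), 2 without control 3 and FGF1 3, and 0 to 43 without 1 library (0 without FGF1 2, with 1285 unadjusted). In FGF1 against control (10) it was 0 with a pseudocount of 0.1 (1609 unadjusted), 1 with 0.5, 50 with no filter, 22 with the filter at 0.5 FPKM, 0 with the filter in 8 libraries (1437 unadjusted), 1 with start-event values, 38 with only the groups compared, 28 with no mean-variance trend, 1 with the replicate block, 38 without DSS 3 and 4, 20 without control 3 and FGF1 3, and 0 to 83 without 1 library (0 without control 2, with 1625 unadjusted). The cause was not tested.

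Signs changed as follows. Tiparp was at 0.0037 in DSS against control with median-of-ratios scaling, and in FGF1 against DSS at 0.0458 without DSS 2, 0.0035 without FGF1 1 and 0.0334 without FGF1 2. Nqo1 was at -0.0364 in DSS against control without control 3, alone or with FGF1 3, and at -0.0372 in FGF1 against control without control 3. In FGF1 against DSS it was at 0.206 without DSS 3 and 4, 0.111 without DSS 3, 0.026 without DSS 4 and 0.243 without FGF1 3, alone or with control 3. In the same comparison Arnt was at -0.0703 without DSS 3 and 4 and at -0.012 without DSS 4, and Cyp1b1 at -0.0185 without DSS 3 and 4. In DSS against control, start-event values gave 0.866 for Hsp90aa1, 0.222 for Ephx1 and 0.769 for Nfe2l2, and Nfe2l2 was at 0.0901 with median-of-ratios scaling, 0.107 without control 2 and 0.138 without DSS 2. For Ahrr, the exact permutation p in DSS against control was 0.0667 without DSS 3 and 4, the smallest that 4 against 2 libraries allow, and in FGF1 against control 0.1 without control 3 and FGF1 3, the smallest that 3 against 3 allow. Without 1 library, or without either of the pairs left out together, the values ran from -0.0364 to 0.385 for Nqo1 and from -0.181 to 0.138 for Nfe2l2 in DSS against control, from -0.0703 to 0.171 for Arnt, -0.0796 to 0.0458 for Tiparp and -0.128 to 0.243 for Nqo1 in FGF1 against DSS, and from -0.0372 to 0.454 for Nqo1 in FGF1 against control. Depth is unknown, so for values under 1 FPKM counting error could not be set beside the spread.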
